A study of Mus musculus with 3 samples.

Results

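Of the 6243 genomic regions that 2 ERα ChIP-seq replicates from the mouse mammary gland both marked as bound, 412 held a perfect estrogen response element (ERE), and they are described here. The ERE searched was GGTCANNNTGACC, the 5-base half-site GGTCA and its mirror copy 3 bases apart, where N is any base. A region is the stretch covered by overlapping peaks of both replicates on chromosomes 1 to 19 and X, and it counted as a perfect-ERE region when the 400 bp around its midpoint held this word with no mismatch. The rule used sequence and the presence of a peak in both lists, and it used no peak height. These regions made up 6.60% of the total (95% interval 6.00 to 7.24%) and occurred on all 20 chromosomes searched. None of these 400 bp windows held a second perfect ERE (0 of 412, which allows a share of up to 0.891%). Regions and bound EREs are therefore counted one for one. Over the whole stretch covered by both peaks, 422 perfect EREs lay in 421 shared regions.

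Both libraries came from female BALB/cJ mice whose ovaries had been removed at 6 weeks of age. After 10 days without ovarian hormones they received 100 ng of 17β-estradiol under the skin, and the #4 glands were taken 2 h later. Each replicate pooled the glands of 6 mice, and 1 input library, chromatin sequenced without antibody, served both. Vehicle-treated glands have no ChIP-seq library here, so the lists cannot be compared between hormone and no hormone. The gland was used whole, so fat, stroma and epithelium contribute to one list, and the lists hold no marker by which cell types could be checked. Each peak carries the authors' score, which is the -log10 of its peak-calling p-value times 10 and depends on both enrichment and sequencing depth. A score of 200 stands for a p-value of 1e-20, and the lowest scores in the lists were 80.02 and 80.05. Regions are not replicates of a condition. The intervals on shares (exact Clopper-Pearson) and the Fisher tests cover counting error over regions or EREs only, and 2 replicates give no spread between animals.

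ERα is a nuclear receptor that, when estradiol is bound, attaches to DNA as a pair of identical molecules. Each molecule reads one half-site of the ERE through its zinc fingers, and the inverted order of the half-sites matches the symmetry of the pair. Most sites used by the receptor in cells are imperfect copies of this element, and the receptor is also drawn to DNA through other factors such as AP1. In the mammary gland ERα acts in luminal epithelial cells, where it drives growth of the ducts.

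The sequences of sites near genes long linked to estrogen are shown first, with that of Stat5a, whose region is among the 10 highest. They show what is fixed by the rule and what is free to vary. Each line gives the forward strand of mm9 from 5′ to 3′ with both half-sites in capitals. The lower-case letters are the spacer and 10 bases on each side, and the coordinates are those of the 13-base element.
Greb1, chr12:16767337-16767349: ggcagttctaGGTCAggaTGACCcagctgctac
Csf1, chr3:107535602-107535614: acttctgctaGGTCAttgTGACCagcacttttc
Nrip1, chr16:76373931-76373943: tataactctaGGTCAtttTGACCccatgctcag
Ebag9, chr15:44451119-44451131: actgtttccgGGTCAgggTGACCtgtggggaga
Prl, chr13:27072446-27072458: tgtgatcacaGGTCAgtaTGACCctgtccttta
Cox7a2l, chr17:83913306-83913318: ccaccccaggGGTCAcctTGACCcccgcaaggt
Stat5a, chr11:100732113-100732125: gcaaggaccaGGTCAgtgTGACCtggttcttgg
All of these lay in shared regions, and no part of the printed stretches is an exon of a protein-coding gene.

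The perfect-ERE regions had the higher peak scores. Replicate 1 gave them a median score of 471, with quartiles of 209 and 917. Replicate 2 gave a median of 349, with quartiles of 161 and 745. In the other 5831 shared regions the medians were 239 and 173. Both scores reached 200 in 275 of 412 perfect-ERE regions (66.7%, interval 61.97 to 71.3%), where 41.7% of all shared regions did so, and in 2328 of the 5831 others (39.9%, 38.7 to 41.2%). The odds ratio was 3.02 (two-sided Fisher's exact test, p = 4.63e-26). Against the 1530 regions whose best match had 1 mismatch, of which 846 reached 200 in both lists (55.3%), the odds ratio was 1.62 (Fisher's exact p = 3.1e-05). This second test was added after the lists had been opened.

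Scores fell step by step with the quality of the best match. The median of the lower of the 2 scores was 340 with a perfect ERE, 224 with 1 mismatch, 168 with 2 mismatches (2264 regions) and 135 with 3 or more (2037 regions). The spread within each class was wide, since the upper quartile of the last class in replicate 1 was 322 and the lower quartile of the perfect class was 209. At the weak end, 40 perfect-ERE regions (9.71%) had a score under 100 in at least 1 list, against 18.3% of the others.

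**Figure D1:**
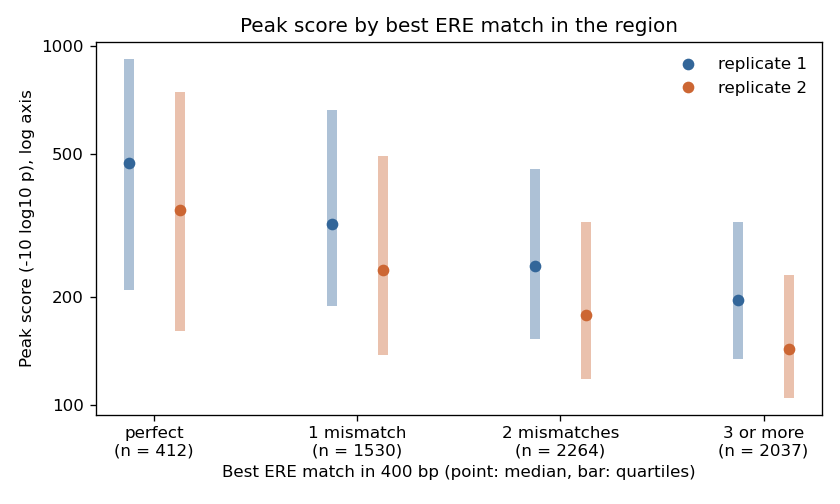
Peak score (log axis, -10 log10 p) in replicate 1 (blue) and replicate 2 (orange) for shared regions grouped by their best ERE match. Points are medians and bars run from the lower to the upper quartile. The medians descend from 471 and 349 with a perfect ERE to 196 and 143 with 3 or more mismatches, and the bars overlap.

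Read from the other side, the share of regions with a perfect ERE stayed between 3.04% and 5.61% across deciles 1 to 7 of the lower score. It was 8.97% in decile 8, 10.7% in decile 9 and 17.9% (14.99 to 21.2%) in decile 10. Best matches with 1 mismatch went from 17.9% in decile 1 to 41.1% in decile 10. Among the 100 highest regions 21 held a perfect ERE, so that even there most of the highest peaks lay over an imperfect element or none.

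**Figure D2:**
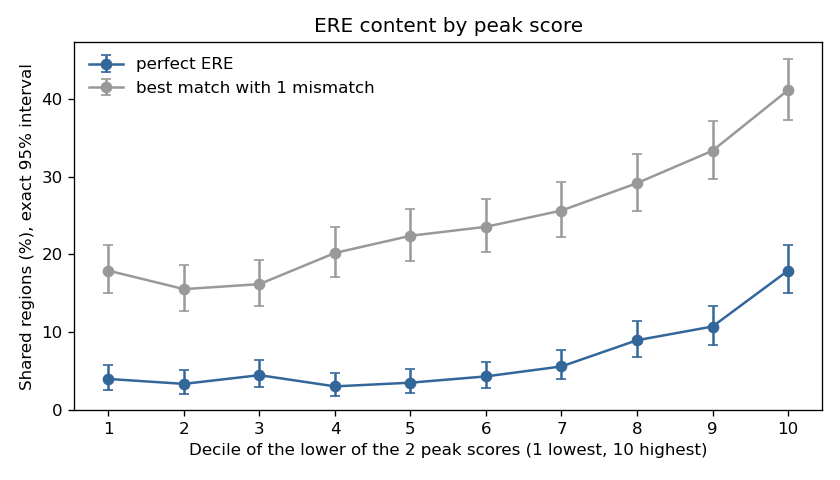
Share of shared regions (%) with a perfect ERE (blue) and with a best match of 1 mismatch (grey) in each decile of the lower of the 2 scores. Bars are exact 95% intervals for counting error. The perfect-ERE share stays under 5% up to decile 6 and reaches 17.9% in decile 10.

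The 2 replicates ranked the perfect-ERE regions alike. Spearman's rank correlation between the scores was 0.954 over the 412 regions and 0.826 over the others, given as a description because all points come from the same 2 libraries and the perfect-ERE regions span the higher scores. Replicate 1 had the higher score in 335 regions (81.3%), with a median ratio of 1.25 against 1.31 in the others. In replicate 1 a partner in the other list existed for 407 of 473 peaks with a perfect ERE (86.0%, 82.6 to 89.0%) and for 63.8% of peaks without (62.8 to 64.8%). In replicate 2 it existed for 405 of 419 (96.7%, 94.5 to 98.2%) and 90.2% (89.5 to 91.0%). The part that the higher scores of these peaks had in this was not tested. The 66 perfect-ERE peaks seen in replicate 1 alone had a median score of 109, and the 14 seen in replicate 2 alone one of 98.8, both near the floor of the lists.

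**Figure D3:**
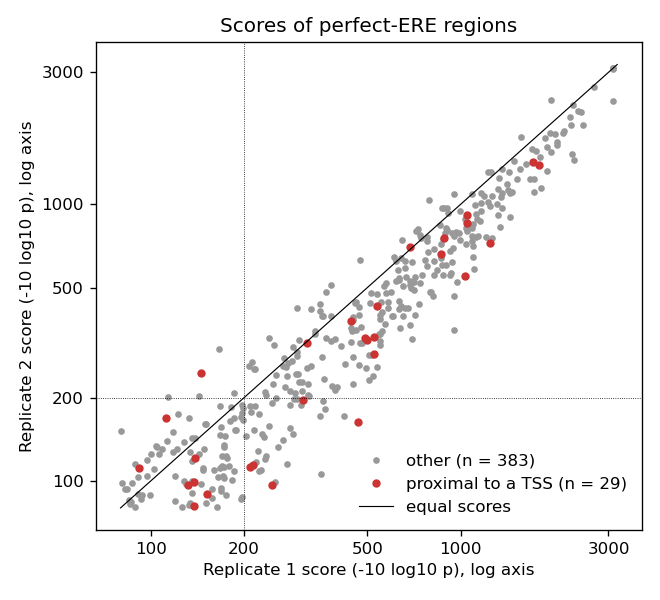
Score in replicate 2 against score in replicate 1 for the 412 perfect-ERE regions (both axes log, -10 log10 p). Red points are the 29 regions proximal to a transcription start, the line marks equal scores and the dotted lines mark 200. Most points lie below the line, and 275 are at or above 200 in both replicates.

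The ERE sat at the centre of the region. Its distance from the midpoint had a median of 26.5 bp (quartiles 12.8 and 49.0), with 202 of 412 elements within 25 bp and 388 (94.2%) within 100 bp. The rule allowed any position in the window, and only 9 elements lay more than 150 bp from the midpoint, the farthest 188 bp away. Just outside the rule, a further 10 perfect EREs lay inside a region but beyond its 400 bp window. Around all shared regions the bins of 25 bp held up to 106 perfect EREs at the centre and a mean of 0.25 between 200 and 1000 bp away. The elements were thus close to the midpoint of regions that were a median of 590 bp wide (557 bp in the others).

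**Figure D4:**
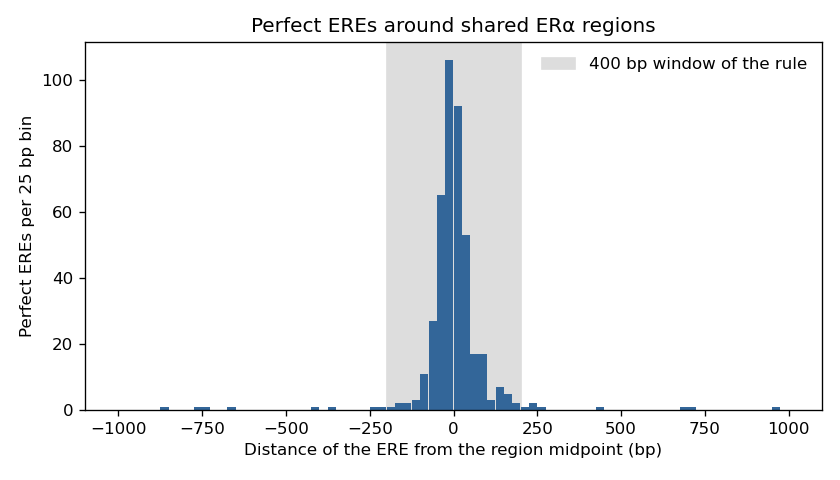
Number of perfect EREs per 25 bp bin by distance from the midpoint of the shared regions (bp). The shaded band is the 400 bp window of the rule. The highest bin holds 106 EREs, and the bins beyond the window hold a mean of 0.25.

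None of the 10 highest perfect-ERE regions was proximal to a promoter. The highest was a 999 bp region at chr16:25220372-25221370, 66032 bp upstream of Tprg, with a score of 3100 in both replicates. That value was tied over 8 shared regions in both lists, 2 of which held a perfect ERE, and single replicate 1 scores went up to 3181. The second of these, at chr6:100009440-100010591, was more than 100 kb from any start. Next came a region 252301 bp from the start of Med13l, a subunit of the Mediator complex that links transcription factors to RNA polymerase, with scores of 3100 and 3078. A region inside the uncharacterised gene AI118078 scored 2684 and 2650, and one inside A730020M07Rik scored 3100 and 2356. The region in an intron of Stat5a, the transcription factor that carries the prolactin signal in the gland, scored 2297 and 2292 at chr11:100731484-100732491. Zfp827, which encodes a zinc finger protein, had a region in an intron with 2392 and 2166. The remaining 3 of the 10 highest were nearest to Gm14215 (2443 and 2150), SNORA17 (2248 and 2075) and the pseudogene Rpl28-ps4 (1956 and 2391). The replicates gave scores within a ratio of 1.25 of each other in all of these but A730020M07Rik.

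Their elements are shown because they carry high scores with 5 different spacers.
Tprg, chr16:25220832-25220844: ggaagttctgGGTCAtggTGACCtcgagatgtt
Med13l, chr5:119263020-119263032: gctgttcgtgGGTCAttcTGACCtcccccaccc
AI118078, chr9:55208841-55208853: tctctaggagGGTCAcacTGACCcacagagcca
A730020M07Rik, chr3:121341183-121341195: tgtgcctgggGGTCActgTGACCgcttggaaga
Zfp827, chr8:81638640-81638652: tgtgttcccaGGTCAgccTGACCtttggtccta
At the other end, the 3 weakest perfect-ERE regions scored 80.6 and 98.2 near Plekha5, 127 and 80.5 inside Camta1, and 80.1 and 152 near Stxbp3a.
Stxbp3a, chr3:108586332-108586344: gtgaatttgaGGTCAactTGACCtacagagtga
This weakest element is intact and has an A next to the half-site on both strands, as Stat5a has. The perfect 13-base word was found across the whole range of scores.

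No class of position along genes separated perfect-ERE regions from the other shared regions by the test used. Proximal regions, from 1000 bp before to 400 bp after a transcription start site (TSS), numbered 29 (7.04%, against 6.47% of the others). A further 154 (37.4%) lay upstream and 187 (45.4%) downstream within 100 kb of the nearest TSS, and 42 (10.2%) farther away. Introns of protein-coding genes held 162 (39.3% against 43.03%) and exons 23 (5.58% against 3.77%). None of 7 such classes passed the test (Fisher's exact test, Benjamini-Hochberg adjusted p between 0.522 and 0.793). The direction of the proximal share changed under 3 alternatives, to 5.63%, 6.18% and 6.13%, all with exact adjusted p above 0.5.

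Proximal perfect-ERE regions included promoters of signalling genes and of a receptor cofactor. The highest was at Gm15408 (scores 1719 and 1428), followed by Map2k7 (1793 and 1382), a kinase that activates JNK. Map2k1, the MEK1 kinase of the ERK pathway, had a region 337 bp before its TSS with 1048 and 855, and Lrrc41 one with 1051 and 918. Nrip1, the cofactor RIP140 that binds ERα and dampens its output, had a region 244 bp after a TSS with 882 and 757. The region at 1110054O05Rik had 1244 and 724, and the one at Tnnc1, a troponin subunit, 685 and 702. Aqp3, a channel for water and glycerol, had 865 and 662, and Samd5 had 1034 and 550. The promoter regions of Itgb3, an integrin subunit, scored 539 and 428, and those of BC023719 scored 442 and 378. Nynrin had 526 and 332, Dbh, the enzyme that makes noradrenaline from dopamine, 499 and 324, and Arhgef19, a guanine nucleotide exchange factor, 319 and 315. Ebag9, a gene first described for the ERE in its promoter, had a region 48 bp before the TSS with 491 and 330. The 29 proximal regions had median scores of 468 and 315, set beside 471 and 349 for all 412.

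Perfect-ERE regions had other shared regions close by less often. Another shared region stood within 10 kb of 86 perfect-ERE regions (20.9%, 17.0 to 25.1%) and of 1791 others (30.7%), an odds ratio of 0.595 (Fisher's exact p = 1.75e-05, a single test added after the lists had been opened). The median distance to the nearest other region was 58609 bp against 30882 bp. Within the others it was 46065.5 bp with 1 mismatch, 33532.5 bp with 2 and 21268 bp with 3 or more. The distance thus fell step by step with the quality of the best match and was not particular to the perfect class. Among themselves, 34 perfect-ERE regions (8.25%) had another within 100 kb. Pairs inside 1 gene were found, among others, in Tbc1d22a, Nmnat2 and Cbara1.

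Motifs of other factors were searched in the same 400 bp on both strands, with the letters of the perfect ERE masked. AP1 words (TGACTCA or TGAGTCA), which are bound by FOS and JUN, occurred in 60 perfect-ERE regions (14.6%) and 16.9% of the others (adjusted p = 0.307 over 5 motifs, Fisher's exact test). Forkhead words (TATTTAC or TGTTTAC), bound by FOXA1 among others, occurred in 53 (12.9% against 14.1%, exact adjusted p = 0.51). The PAX2 word GTCACG was in 6.80% against 9.04% (exact adjusted p = 0.214). The SF1 word CAAGGTCA, a single half-site with 3 bases before it, was in 14 regions (3.40%, 1.87 to 5.64%) and 9.06% of the others (odds ratio 0.353, exact adjusted p = 4.38e-05). A free half-site GGTCA was in 245 (59.5%) and 88.1% of the others (odds ratio 0.198, exact adjusted p = 6.33e-44).

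The last 3 motifs share letters with the ERE, and the masking matters for them. With the letters of the ERE left in place, all 412 regions hold a half-site by construction, and the SF1 share is 13.6%. The others contain half-sites of imperfect EREs, which were not masked. With elements of up to 2 mismatches masked in both groups, an alternative added later, the shares were 52.9% against 70.3% for the half-site (exact adjusted p = 4.67e-12) and 2.43% against 5.35% for SF1 (exact adjusted p = 0.0189).

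The mouse genome holds 2353 perfect EREs on these chromosomes, and 412 of them (17.5%, 16.0 to 19.1%) lay in the window of a shared region. A looser count, with the element anywhere inside a peak of either list, gave 502 (21.3%), and 1851 (78.7%) lay in no peak. For comparison, 1625 of 70024 elements with 1 mismatch (2.32%, 2.21 to 2.43%) were in such a window, and the windows cover 0.0946% of the bases. Perfect EREs thus lay in shared regions more often than single-mismatch copies, and most lay in no peak. For 2142 of the elements, at least 90% of the words of 51 bases, the read length, in the surrounding 400 bp occurred once in the genome. Of these elements 18.7% were bound, against 12 of the 211 others (5.69%, odds ratio 3.81, adjusted p = 1.58e-06 over 16 features, Fisher's exact test). The genome is that of another strain, C57BL/6, so an element gained or lost in BALB/cJ was not seen.

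The bases just outside the element differed between bound and unbound EREs. The longer form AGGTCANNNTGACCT has an A before the half-site on both strands. The bound share was 105 of 988 (10.6%) with this A on neither strand, 201 of 962 (20.9%) with it on 1 and 106 of 403 (26.3%) with it on both. With at least 1 such A, 22.5% were bound (odds ratio 2.44, adjusted p = 5.04e-13, Fisher's exact test over 16 features). The EREs without this A include 285 with T in that place on both strands, of which 2 were bound. Among EREs with no T there, the shares with an A were 26.3% (A and A), 30.7% (A and G) and 26.7% of 60 (A and C). Without an A they were 31.7% (G and G), 19.6% of 56 (C and G) and 3 of 8 (C and C). The part of A apart from T was not tested. Among the bound EREs, both scores reached 200 in 72.6% (63.1 to 80.9%) with both flanks and in 67.6% (57.8 to 76.4%) with none, and this difference did not pass (Fisher's exact p = 0.455).

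A T in that place went with the absence of a peak. This split was chosen after the base counts had been seen and is given without a test. With no T before either half-site 303 of 1066 EREs were bound (28.4%, 25.7 to 31.2%), and with 1 such T 107 of 1002 (10.7%, 8.83 to 12.8%). With T on both strands, as in TGGTCANNNTGACCA, 2 of 285 were bound (0.702%, 0.0851 to 2.51%), and 5 of the 285 touched a peak in either list. G in this place went with shares like those of A. Elements with G on both strands were bound in 31.7% of 145 cases (24.3 to 39.96%), those with A and G in 30.7% of 394 and those with A and A in 26.3% of 403. With A and T the share was 12.6% of 508 (9.84 to 15.8%), and with G and T it was 10.0% of 420 (7.30 to 13.3%). With C and T it was 1 of 74 (1.35%, 0.0342 to 7.30%), so the share with 1 T was not the same for every partner base. The 107 bound EREs with 1 such T also had lower scores, with medians of 295 and 213 against 537 and 396 for the 303 with none.

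The T pattern was present at every level of base composition and in unique sequence. In EREs whose surroundings had under 40% GC the bound share was 16.7% with no T and 7.02% with 1, and at 55% GC or more it was 56.8% and 18.4%. Over EREs with unique words the shares with 0, 1 and 2 such bases were 30.2%, 11.4% and 0.766%. The only bound elements with T on both strands were in an intron of BC052040, with scores of 812 and 468, and in an intron of Smurf1, a ubiquitin ligase of the BMP pathway, with 167 and 112.
BC052040, chr2:115431610-115431622: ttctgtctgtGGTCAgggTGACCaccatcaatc
Smurf1, chr5:145709699-145709711: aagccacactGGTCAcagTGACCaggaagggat

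**Figure D5:**
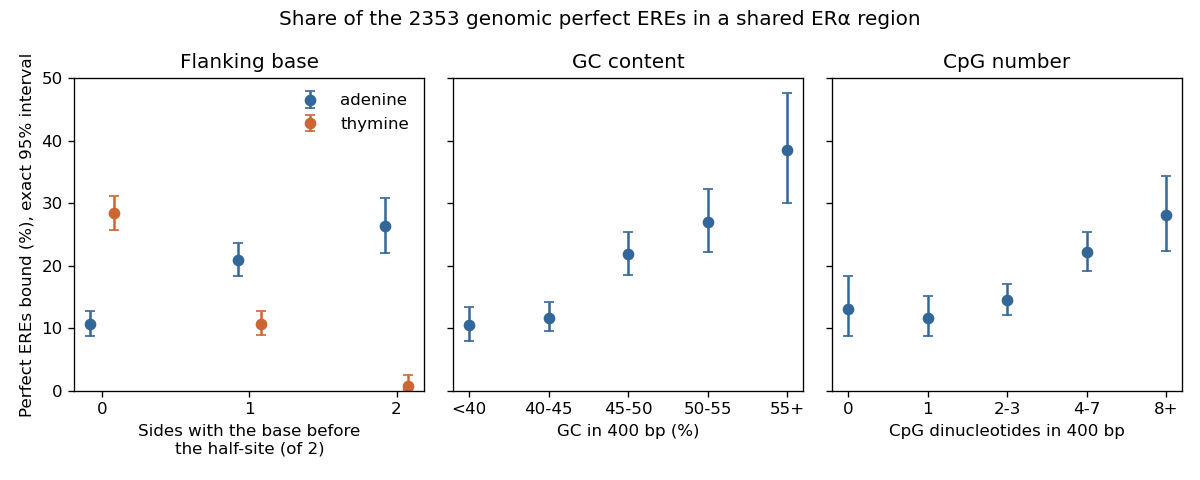
Share (%) of the 2353 perfect EREs of the genome that lie in a shared region, by the number of sides with adenine (blue) or thymine (orange) before the half-site (left), by GC content (middle) and by CpG number (right) in 400 bp. Bars are exact 95% intervals for counting error. The share falls from 28.4% to 0.702% with thymine on 0, 1 and 2 sides and reaches 38.6% at 55% GC or more.

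The 3 bases of the spacer, which no rule used, also went with different shares. With each spacer folded onto its complement, CCG was bound in 12 of 32 (37.5%) and CAG in 43 of 152 (28.3%), whereas AAA was bound in 8 of 106 (7.55%) and AAG in 2 of 59 (3.39%). The numbers per spacer are small and single spacers were not tested. A CpG in the spacer went with 27.8% bound against 17.2% without (Fisher's exact adjusted p = 0.0531 over 16 features), which did not pass.

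Base composition and place went with binding too. The bound share was 10.5% under 40% GC, 21.9% between 45% and 50% and 38.6% at 55% or more. With at least 2 CpG in 400 bp it was 19.4% against 12.1% with fewer (exact adjusted p = 0.000129). EREs more than 100 kb from any TSS were bound in 42 of 384 cases (10.9%) against 18.8% of those nearer (odds ratio 0.531, exact adjusted p = 0.000414). Proximal EREs were bound in 29 of 118 cases (24.6%, exact adjusted p = 0.0737), which did not pass. This test passed when only EREs with unique words (32.9%, exact adjusted p = 0.0045), only starts of protein-coding genes (31.4%, exact adjusted p = 0.00341) or only replicate 2 (26.3%, exact adjusted p = 0.0333) were used. It also passed over EREs in no sequence family, as defined later (34.6%, exact adjusted p = 0.00242). The same held over EREs whose 27 bases occur once (30.8%, exact adjusted p = 0.0104). It did not pass with replicate 1 alone (exact adjusted p = 0.317), nor under the remaining alternatives. Peaks at 1e-10 gave 19.5% and at 1e-20 13.6% (exact adjusted p = 0.384 and 0.889). Midpoints within 100 bp gave 17.8% and the most 5 prime TSS of each gene 20.7% (exact adjusted p = 0.564 and 0.533). With 50% reciprocal overlap, the interval covered by both peaks or a peak of either list, exact adjusted p was 0.0574 to 0.128. A PAX2 word nearby went with 29.3% against 17.0% (exact adjusted p = 0.0123), a call lost under 4 alternatives with exact adjusted p of 0.0513 to 0.09, and a free half-site with 19.4% against 15.3% (exact adjusted p = 0.0241). Forkhead words went with 22.7% against 16.9% (exact adjusted p = 0.0563, and 0.0248 for peaks at 1e-20 and 0.0463 with 50% reciprocal overlap). Under the other alternatives the forkhead test did not pass (exact adjusted p of 0.0546 to 0.209). AP1 words went with 19.1% against 17.3% (exact adjusted p = 0.533). The separate parts of GC content, place and mappability in these shares were not tested.

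Some perfect EREs are copies of one another. When 63 bases around the elements were compared and at most 12 differences allowed, a choice made after the data had been seen, 342 of the 2353 (14.5%) fell into 47 families. Of these 28 were bound (8.19%, 5.51 to 11.6%), against 384 of the 2011 others (19.1%). The largest family had 123 copies on all 20 chromosomes, 122 of them with T before a half-site on 1 strand, and 14 were bound (11.4%). Their scores ran from 97.4 to 1525 in replicate 1 and from 89.1 to 1230 in replicate 2, with medians of 281 and 195. Bound copies stood near Ddx28 (1525 and 1230), an RNA helicase, Mrps6 (1048 and 839), a protein of the mitochondrial ribosome, and Gm16786 (114 and 201), the last of which lies 45502 bp from Myb. The stretch common to the copies can be read in their lines.
Mrps6, chr16:92160604-92160616: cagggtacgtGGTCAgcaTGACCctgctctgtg
Gm16786, chr10:20835300-20835312: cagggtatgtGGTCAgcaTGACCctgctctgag
This family holds 84 of the 163 genomic EREs with the spacer GCA, of which 15.3% were bound in all and 24.1% outside the family. The T pattern held without any family, with 29.7%, 11.2% and 0.847% bound. Without families, AP1 words went with 26.9% bound (odds ratio 1.64, exact adjusted p = 0.0225), a call not made over all EREs.

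Perfect-ERE regions lay within 100 kb of a TSS of 1138 of 22350 protein-coding genes, or 5.09%. Of all 22350 genes, 38.1% had a shared region of any kind there and 21.5% a perfect ERE, bound or not. Of 25 genes known for an estrogen response, 18 had a shared region and 7 (28.0%) had a perfect-ERE region within 100 kb. Besides Ebag9, Greb1 and Nrip1, these were Vegfa, the angiogenic growth factor, with scores of 1331 and 1250 at 54694 bp upstream, and Prl, the hormone prolactin, with 572 and 369 at 77036 bp upstream. Myb, a transcription factor of progenitor cells, had the family copy named above, and Cox7a2l, a factor of the mitochondrial respiratory chain, had 132 and 96.8 at 317 bp after its TSS. The Vegfa region is nearer to Mrps18a, and distance alone does not assign a region to a gene. Of 19 genes the study names, 8 (42.1%) had a perfect ERE, 15 (78.9%) a shared region and 3 (15.8%) a perfect-ERE region. Greb1, an estrogen-induced gene that acts as an ERα cofactor, had 927 and 554 in an intron 3329 bp before the nearest TSS. Csf1, the growth factor of macrophages, had 1114 and 992 at 18037 bp after its TSS. Krt7, a keratin of luminal epithelium, had 633 and 540 at 91246 bp away, in a region nearer to 6030408B16Rik. Both lists were chosen with the biology of estrogen or the results of these data in view, so their counts are no independent evidence.

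Genes that the study lists as induced or repressed by estradiol were set beside all protein-coding genes. A perfect-ERE region lay within 100 kb of 33 of 218 induced genes (15.1%) and 14 of 272 repressed genes (5.15%), against the 5.09% above, given without a test because the study chose these genes on its own RNA. Shared regions of any kind lay there for 82.1% of induced, 42.6% of repressed and 38.1% of all protein-coding genes. Among the regions nearest to an induced gene, 18 of 267 held a perfect ERE (6.74%, 4.04 to 10.4%), close to the 6.60% of all shared regions. For repressed genes this was 5 of 49 (10.2%, 3.40 to 22.2%).

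The induced genes with the highest such regions were Chd9, a chromatin helicase (lower score 1605 at 33707 bp after the TSS), and Anxa3, a calcium-dependent membrane binder (1347 at 34017 bp). Irf4, a transcription factor of immune cells, was the nearest gene to 2 perfect-ERE regions, with lower scores of 1238 at 65142 bp and 720 at 22030 bp. Further induced genes were Csf1, Zxdc (948), a zinc finger gene, Lrrc41 (918), the receptor phosphatase Ptpru (622), the sterol-binding Osbpl3 (602), the protease Htra3 (601) and Greb1. The highest for a repressed gene was near Gipc2 (882 at 11697 bp upstream). The region at the Samd5 promoter, also listed as repressed, had a lower score of 550, so perfect EREs stood beside genes listed in both directions.

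Several well-known genes also had perfect EREs that were not bound. The nearest of these to a listed gene lay 1909 bp before a TSS of Heyl, a Notch target, and the next 2590 bp before one of Muc1, a luminal mucin. Others lay 16560 bp after the TSS of Ebag9, 24279 bp before that of Hspb1, a small heat shock protein, and 47249 bp before that of Greb1. None of the first 4 touched a peak in either list. The Greb1 element lay inside peaks of both lists but outside the 400 bp window, so it is unbound by the rule only. The 2 elements of Ebag9 can be set side by side, since the gene has a bound one at its promoter, printed at the start, and this unbound one in an intron.
Ebag9, chr15:44467741-44467753: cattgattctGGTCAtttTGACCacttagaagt
Heyl, chr4:122915085-122915097: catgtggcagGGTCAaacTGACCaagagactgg
Muc1, chr3:89030383-89030395: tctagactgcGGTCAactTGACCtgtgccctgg
The unbound Ebag9 element has the T before the half-site on both strands, and its spacer TTT is the same as at the bound Nrip1 promoter. The Muc1 element has the A on 1 strand and 11 CpG in 400 bp and lay in no peak. Over the genome, 22.5% of perfect EREs with at least 1 such A were bound, so most elements of this kind were unbound in these libraries.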

How the data were processed

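ERα ChIP-seq peak lists of 2 replicates were analysed. The authors mapped single-end reads of 51 nt with BWA to mm9. They ran MACS on each replicate with the 1 input as control and a p-value limit of 1e-08 (version not given in the sources used here). The deposited score of a peak is -log10 of its p-value multiplied by 10. The lists held 9607 and 6819 peaks. They hold no reads, so the depth behind a score is unknown, and the input entered through peak calling only. The paper names a ThruPlex kit and the labels an Illumina kit.

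Peaks overlapping by at least 1 bp were intersected, and the 9 and 7 peaks on unplaced sequences were left out. EREs were searched in the NCBIM37 assembly, which is mm9. TSSs and exons were those of GENCODE for NCBIM37 (Ensembl release of that build). A region has the class of its nearest TSS of any transcript, and intron and exon refer to protein-coding genes. Shares were compared by two-sided Fisher's exact test with Benjamini-Hochberg adjustment within each family of tests (7 classes of place, 5 motifs, 16 features of genomic EREs). Genes listed as induced or repressed were taken from the study by name.

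Named are the 10 highest and 3 lowest regions, up to 15 proximal regions, regions within 100 kb of 19 study-named and 25 estrogen-response genes, up to 12 nearest to regulated genes, and the 5 unbound EREs nearest to the listed genes. No region met a further part of the rule, which was to hold at least 2 perfect EREs in its 400 bp window. The members, lists and tests were chosen with earlier results of these data known. The search, overlap, TSS classes and test were tested on simulated data. Alternatives were stricter p-values, other overlaps, windows, TSS sets and maskings, and each replicate alone. Software was scipy 1.17.1, numba 0.67.0, numpy 2.4.6, matplotlib 3.10.9 and pandas 2.3.3 under Python 3.11.15. A pair of regions inside 1 further gene is not reported here.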

Additional observations from a re-analysis of the deposited data

How the results depend on the processing

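Of 173 values recomputed under alternatives, 132 had a test, of which 112 kept their direction and side of the threshold, 8 came to pass, 4 no longer passed and 8 turned. Of the 41 without a test, 32 stayed within a set limit and 9 moved more. The limit was 1 SD between the values of the 2 replicate lists. For the number of regions with a perfect ERE it was 1.5 times (275 at a p-value of 1e-20 to 473 without replicate 2). The SD rests on only 2 values, which are also among the alternatives, so this tally is no measure of stability. The share of genomic EREs that were bound (17.5%) became 21.3% for EREs in a peak of either list, 15.9% with peak midpoints within 100 bp, 15.8% at a p-value of 1e-10 and 11.7% at 1e-20, and it ran from 17.8% to 20.1% with 1 replicate alone. The share of regions with a perfect ERE became 10.6% at 1e-20 and ran from 4.93% to 6.15% with 1 replicate alone. The median lower score became 388 at 1e-10 and 554 at 1e-20, where fewer weak peaks remain. The share of proximal regions turned below that of the others with midpoints within 100 bp (5.63%) and at 1e-10 (6.18%), and ran from 6.13% without replicate 2 to 7.88% without replicate 1. Other results that turned were the bound share of EREs with AP1 at 1e-20 (11.2%), AP1 in a 200 bp window (10.5%), and, with the letters of the ERE left in place, PAX2 (10.9%), SF1 (13.6%) and the half-site (100%). The last 3 follow from the letters these words share with the ERE, and for the rest the cause was not tested.

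The lists hold no reads, so weak binding below a p-value of 1e-08 is not seen and an unbound ERE means 1 without a called peak. No paired analysis was possible because the tests count regions or EREs over both lists and the replicates are not compared between groups.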
